A study of Homo sapiens with 21 samples.

Results

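The genes described here are the human translation initiation factors, the proteins that bring the ribosome, the initiator tRNA and the mRNA together at a start codon. They were taken as the rows of the count table whose NCBI symbol begins with EIF1 to EIF6, without the eIF2 alpha kinases (EIF2AK), the eIF4E-binding proteins (EIF4EBP), the eIF4E transporter (EIF4ENIF) and pseudogenes. The annotation held 53 such genes, 50 of them were among the 28395 rows of the table, and 48 passed the filter on low counts among the 16036 genes tested. The 2 that did not pass were EIF1AY and EIF4A1, and both were listed at 0 counts in all 21 libraries. Of the 48, 45 were protein-coding and 3 were noncoding neighbours that carry a factor's name (EIF1AX-AS1, EIF1B-AS1 and EIF3J-DT).

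RNA was measured in Hs578T cells, an established triple-negative breast cancer line, collected 8 h after treatment. THZ531 is an inhibitor of the transcriptional kinases CDK12 and CDK13, which act on elongating RNA polymerase II, and lapatinib and nilotinib inhibit tyrosine kinases. The 7 groups of 3 replicates were DMSO, THZ531 at 0.1 μM, lapatinib at 3.16 μM, nilotinib at 1 μM, each of these inhibitors together with 0.1 μM THZ531, and THZ531 at 1 μM. The last 3 groups are called the strong treatments below, all cells were labelled wild type, and every library came from the same cell line.

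Initiation starts when eIF2, bound to GTP, carries the initiator tRNA to the small ribosomal subunit together with eIF1, eIF1A, eIF3 and eIF5. The cap-binding protein eIF4E, the scaffold eIF4G and the helicase eIF4A, helped by eIF4B and eIF4H, load this complex onto the mRNA. After start-codon recognition eIF5 triggers GTP hydrolysis, eIF5B joins the large subunit, and eIF2B returns eIF2 to its GTP form. eIF2B is the step that is limited when eIF2 alpha is phosphorylated in stressed cells, and in growing tumour cells eIF4E is known as a limiting and regulated component.

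The total count per library lay between 97612207 and 112229052, and log2 counts of replicates correlated at 0.990 to 0.994. Among genes with low nonzero counts in a library, even values made up 61.5% to 66.4%. The annotation and pairing settings of the counting are not given in the sources used here. The study describes the RNA samples as coming from independent experiments, and the labels do not say which libraries belong to the same experiment. CPM below is a count divided by the TMM-scaled library size, so that libraries can be compared. The mesenchymal markers fixed for this line were abundant (VIM at 6971 CPM or more, AXL at 1406 CPM or more), whereas EPCAM and CDH1 were at or below 0.402 CPM and ESR1 and PGR at or below 0.545 CPM in every library. The share of counts on the 13 mitochondrially encoded mRNAs was 1.25% ± 0.0895 in DMSO and 1.6% ± 0.139, 1.56% ± 0.115 and 1.53% ± 0.219 (SD, n = 3) with lapatinib and THZ531, nilotinib and THZ531, and 1 μM THZ531, so the choice of scaling moves every value below.

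The strong treatments changed the initiation factor genes in both directions relative to other genes, and the single treatments left nearly all of them without a call. With lapatinib and THZ531, 13 of 48 genes fell and 20 rose at an adjusted p under 0.05, which is 27.1% and 41.7% of the tested members, where 37.8% of all tested genes fell and 34.3% rose. With nilotinib and THZ531, 11 fell and 25 rose (22.9% and 52.1%, background 37.3% and 33.7%), and with 1 μM THZ531, 13 fell and 25 rose (27.1% and 52.1%, background 36.8% and 33.1%). The median log2 fold change (log2 FC) of the 48 genes was 0.17, 0.28 and 0.26, beside -0.0099, -0.013 and -0.0096 over all genes tested. These directions are relative to the trimmed mean of M-values (TMM) scaling, which centres the typical gene near 0. Scaling to the mitochondrial mRNAs lowered the median of all genes to -0.69, -0.63 and -0.55 on the log2 scale. It turned the split to 27 lower and 1 higher, 24 lower and 1 higher, and 21 lower and 2 higher. Library size alone gave 21 and 12, 17 and 13, and 16 and 13. Rises and falls below are therefore relative to the median gene, and bulk counts cannot tell fewer copies per cell from less RNA in the library.

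In all, 11 genes were lower with all 3 strong treatments, 20 were higher with all 3, 6 were called with none, and 0 were called in opposite directions. Over all genes tested, 30.8% were lower with all 3, 27.2% higher with all 3 and 17% called with none, and the 3 comparisons share the DMSO libraries. The 11 lower genes were EIF5, EIF1B, EIF1AD, EIF5A2, EIF4A2, EIF4B, EIF4E, EIF2B4, EIF2B5, EIF1B-AS1 and EIF3J-DT. The 20 higher genes included 9 eIF3 subunits, EIF1, EIF1AX, EIF2S2, EIF2D, EIF4G2, EIF4H, EIF5A, EIF5AL1, EIF5B, EIF6 and EIF4E1B. Changes beyond 2-fold were uncommon among them. They were 5 lower and 1 higher with lapatinib and THZ531 (10.4% and 2.08%, where 21.3% and 7.9% of all genes passed the same limits), 5 lower and 2 higher with nilotinib and THZ531 (background 20.8% and 6.54%), and 4 lower and 2 higher with 1 μM THZ531 (background 18.9% and 5.77%). The 2 higher beyond 2-fold with 1 μM THZ531 were EIF4E1B and EIF1AX-AS1, and EIF4E1B was also counted with both combinations. Both genes, described below, reached the test only through the treated groups in which they are high. Their place in these counts, and among the members called higher above, therefore follows from the filter and is a description. With at least 10 counts required in every library, 45 of the 50 genes remained.

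**Figure D1:**
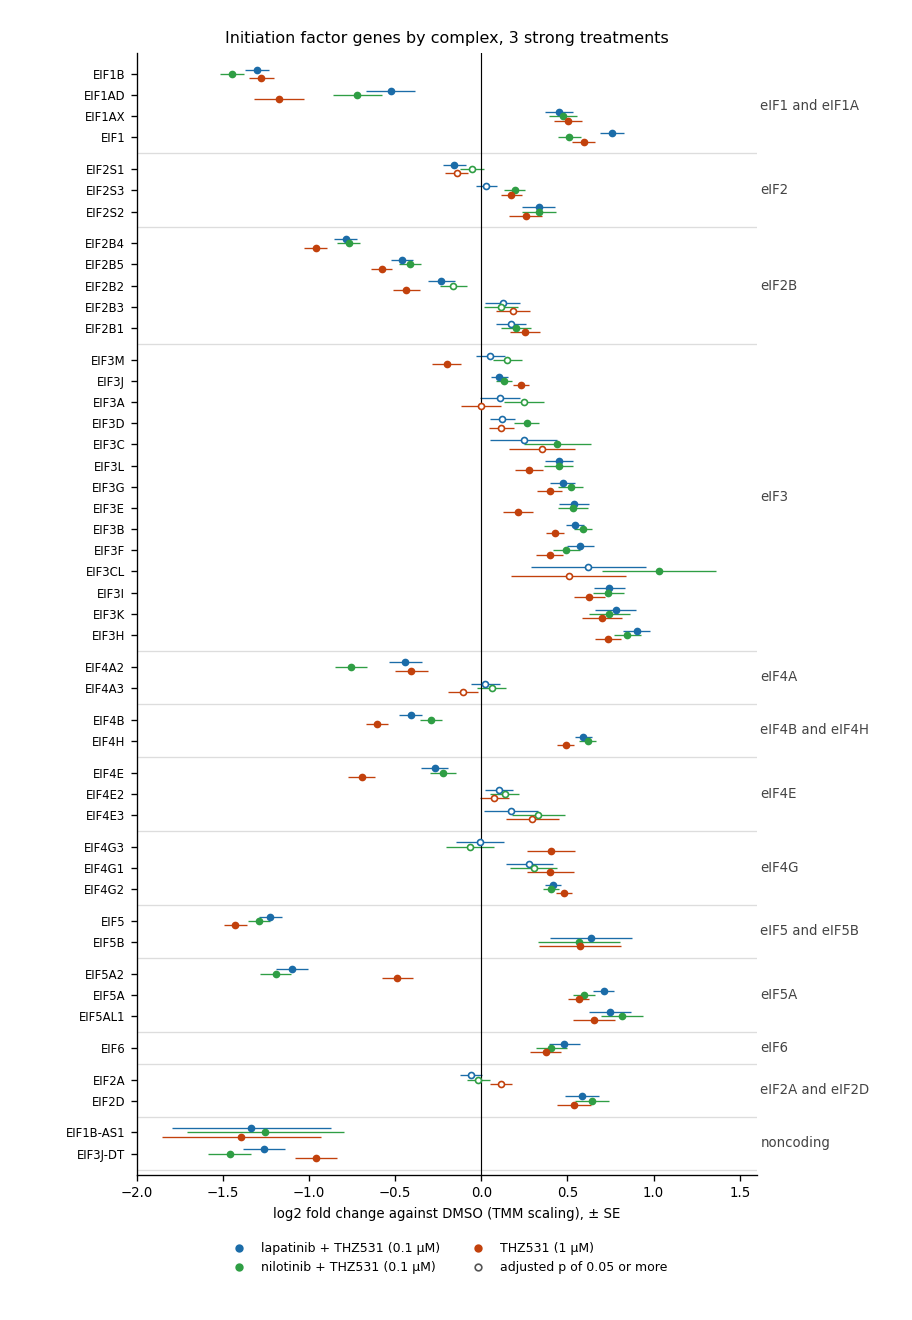
Log2 fold change against DMSO (x axis, TMM scaling, error bars SE) of 46 initiation factor genes, grouped by complex, for the 3 strong treatments, with filled points at an adjusted p under 0.05. EIF5 and EIF1B lie near -1.3 in all 3 treatments and the eIF3 subunits lie mostly between 0.1 and 0.9. Under mitochondrial scaling all points move down by about 0.54 to 0.68. EIF4E1B and EIF1AX-AS1 are off the scale and not drawn.

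The starts of 8 genes whose changes are taken up below are printed here, each from 70 bases before to 20 bases after the annotated start (RefSeq, GRCh38.p14). Capitals mark the E-box letters CACGTG, the TATA-box letters TATAAA, or, directly at the start, a C followed by at least 4 C or T, the kind of start that mRNAs of the translation machinery often carry. EIF1 and EIF1B are shown because they encode near-equivalent proteins and moved in opposite directions, EIF5 and EIF5A2 because they were among the members that fell furthest, and EIF3F, EIF3K, EIF4B and EIF4A2 because they share a pyrimidine start. EIF5 has another annotated start, which is not printed.
EIF1 (chr17:41688815-41688904, plus strand): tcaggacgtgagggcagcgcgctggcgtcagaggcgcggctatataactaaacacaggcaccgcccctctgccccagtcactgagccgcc
EIF1B (chr3:40309637-40309726, plus strand): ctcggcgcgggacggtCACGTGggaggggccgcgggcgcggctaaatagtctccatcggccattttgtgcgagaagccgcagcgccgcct
EIF5 (chr14:103334167-103334256, plus strand): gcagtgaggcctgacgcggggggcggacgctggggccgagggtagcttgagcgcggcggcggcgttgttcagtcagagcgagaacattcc
EIF5A2 (chr3:170908618-170908707, minus strand): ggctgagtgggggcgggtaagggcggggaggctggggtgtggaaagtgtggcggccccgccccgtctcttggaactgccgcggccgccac
EIF3F (chr11:7987267-7987356, plus strand): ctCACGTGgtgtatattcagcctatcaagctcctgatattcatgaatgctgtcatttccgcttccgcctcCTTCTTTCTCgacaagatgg
EIF3K (chr19:38619118-38619207, plus strand): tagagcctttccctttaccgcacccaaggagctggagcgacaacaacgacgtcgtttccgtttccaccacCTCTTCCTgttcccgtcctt
EIF4B (chr12:53006386-53006475, plus strand): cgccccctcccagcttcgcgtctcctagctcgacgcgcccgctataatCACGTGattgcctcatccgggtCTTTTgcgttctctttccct
EIF4A2 (chr3:186783507-186783596, plus strand): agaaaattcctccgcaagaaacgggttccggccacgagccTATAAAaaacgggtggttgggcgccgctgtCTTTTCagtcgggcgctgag
EIF3F and EIF3K, printed with the pyrimidine start, rose with lapatinib and THZ531, while EIF4B and EIF4A2, printed with the same kind of start, fell. Over the 41 tested members with a promoter entry, 9 had this start (22%, against 6.96% of the 12271 tested genes with an entry), and with lapatinib and THZ531 2 of the 9 fell, 3 rose and 4 were not called. The letters CACGTG, searched in the 300 bases from 250 before to 50 after the start on both strands, occurred in 11 of the 41 members (26.8%, against 11.9% of all), and 5 of these fell, 3 rose and 3 were not called. Both EIF1B and EIF1B-AS1 are among the 11 and among the 5 that fell. These 2 genes start beside each other and their searched stretches overlap, so the same letters can be counted for both. The letters TATAAA occurred in 1 member, EIF4A2, against 9.37% of all genes. The matches are descriptions of letters and were not tested as sites.

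The coding genes that carry the name of eIF1 or eIF1A split into a pair that rose and a pair that fell. EIF1, which enforces start-codon choice, was at 379, 389.6 and 396 CPM in DMSO, 415, 415 and 390.4 with 0.1 μM THZ531, 401, 389 and 359 with lapatinib and 461, 403 and 408 with nilotinib. With the strong treatments it was at 663, 641 and 664 CPM with lapatinib and THZ531, 582, 575 and 502 CPM with nilotinib and THZ531, and 543, 627 and 586 CPM with 1 μM THZ531. All 9 libraries of the strong treatments lay above all 12 others, and the log2 FC was 0.76, 0.51 and 0.59 with lapatinib and THZ531, nilotinib and THZ531, and 1 μM THZ531 (adjusted p = 4.85e-09, 1.34e-06 and 2e-07), a rise that mitochondrial scaling reduced to 0.075, -0.10 and 0.058. EIF1B, its paralog, was at 32.9, 29.8 and 34.3 CPM in DMSO, 32.8, 30.9 and 29.4 with 0.1 μM THZ531, 32.6, 31.2 and 30.3 with lapatinib and 32.5, 33.5 and 31.6 with nilotinib. It fell to 12.1, 13.6 and 13.6 CPM with lapatinib and THZ531, 11.6, 12.2 and 11.8 CPM with nilotinib and THZ531, and 13.8, 13.0 and 13.2 CPM with 1 μM THZ531. All 9 strong-treatment libraries lay far below the 12 others, and the log2 FC was -1.30 ± 0.071 (SE, adjusted p = 2.11e-12), -1.45 ± 0.071 (SE, adjusted p = 5.42e-13) and -1.28 ± 0.07 (SE, adjusted p = 5.15e-12).

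EIF1AX, the X-linked gene of eIF1A, rose by 0.45 ± 0.081, 0.48 ± 0.081 and 0.50 ± 0.081 on the log2 scale, and its mitochondrially scaled values were -0.23, -0.15 and -0.046. EIF1AD, which encodes a protein with an eIF1A domain, was at 32.8, 36.4 and 32.6 CPM in DMSO, 32.5, 35.1 and 35.4 with 0.1 μM THZ531, 30.2, 33.8 and 32.0 with lapatinib and 28.4, 32.3 and 33.9 with nilotinib. Its levels then were 19.9, 25.5 and 25.3 CPM with lapatinib and THZ531, 16.7, 22.8 and 22.4 CPM with nilotinib and THZ531, and 17.3, 11.1 and 16.7 CPM with 1 μM THZ531. It was lowest with 1 μM THZ531, at a log2 FC of -1.17 ± 0.14 (SE, adjusted p = 4.78e-07), against -0.53 ± 0.14 (SE, adjusted p = 0.0025) with lapatinib and THZ531 and -0.72 ± 0.14 (SE, adjusted p = 0.000147) with nilotinib and THZ531. The noncoding EIF1AX-AS1 held 0 to 8 counts in every library outside 1 μM THZ531 and 31, 24 and 12 counts there, and it passed the filter only through that group, so its call with 1 μM THZ531 is a description.

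eIF2, which delivers the initiator tRNA, changed little. EIF2S1, its alpha subunit and the target of the stress kinases, was at 210.1, 182 and 204 CPM in DMSO, 213, 203 and 190.3 with 0.1 μM THZ531, 207, 188 and 195 with lapatinib and 196, 206 and 197 with nilotinib. In the strong treatments it read 193, 173 and 168 CPM with lapatinib and THZ531, 203, 188 and 183 CPM with nilotinib and THZ531, and 177, 183 and 179.8 CPM with 1 μM THZ531. The treated and DMSO libraries overlapped for all 3 treatments, and the only call, a log2 FC of -0.16 ± 0.067 with lapatinib and THZ531 (adjusted p = 0.0432), was lost in 6 of the 21 fits that left out 1 library (adjusted p up to 0.176). EIF2S2, the beta subunit, was at 149, 151 and 152 CPM in DMSO, 159.7, 155 and 148 with 0.1 μM THZ531, 198, 189 and 168 with lapatinib and 218, 156 and 164 with nilotinib. It was at 207, 176 and 185 CPM with lapatinib and THZ531, 206, 181 and 182 CPM with nilotinib and THZ531, and 173, 186 and 180.2 CPM with 1 μM THZ531. It rose by a log2 FC of 0.33, 0.34 and 0.26 (adjusted p = 0.00506, 0.00487 and 0.0255), and the lapatinib and nilotinib libraries also lay above DMSO, at 0.30 ± 0.10 and 0.26 ± 0.10 without a call (adjusted p = 0.377 and 0.345). The call with 1 μM THZ531 was lost in 5 of the 21 fits that left out 1 library (adjusted p up to 0.073). EIF2S3, the gamma subunit, rose by 0.17 ± 0.061 with 1 μM THZ531 and, in the nilotinib combination, by 0.19 ± 0.061, and its value with lapatinib and THZ531 was 0.029 ± 0.061 (SE, adjusted p = 0.682). Its call with 1 μM THZ531 was lost without DMSO replicate 2 (adjusted p = 0.0703) or 1 μM THZ531 replicate 1 (adjusted p = 0.104). Under mitochondrial scaling EIF2S2 and EIF2S3 were below 0 with all 3 treatments, between -0.66 and -0.28.

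In eIF2B, the exchange factor that recharges eIF2, 3 of 5 subunits fell with lapatinib and THZ531 and with 1 μM THZ531, and 2 of 5 with nilotinib and THZ531. Over all tested genes, 37.8%, 36.8% and 37.3% fell in these comparisons. EIF2B4, the delta subunit, was at 40.1, 41.4 and 43.9 CPM in DMSO, 42.6, 41.7 and 42.4 with 0.1 μM THZ531, 41.9, 40.7 and 39.8 with lapatinib and 40.6, 43.1 and 42.0 with nilotinib. Under the strong treatments it was at 26.3, 23.3 and 22.9 CPM with lapatinib and THZ531, 25.9, 24.2 and 23.4 CPM with nilotinib and THZ531, and 20.2, 22.2 and 21.9 CPM with 1 μM THZ531. No strong-treatment library reached any other, and the log2 FC was -0.79 ± 0.067 (SE, adjusted p = 1.96e-09), -0.77 ± 0.067 (SE, adjusted p = 2.96e-09) and -0.96 ± 0.067 (SE, adjusted p = 1.54e-10). EIF2B5, the catalytic epsilon subunit, fell, with log2 FCs of -0.46 ± 0.063, -0.41 ± 0.063 and -0.58 ± 0.063, with libraries apart from DMSO each time. EIF2B2, the beta subunit, had log2 FCs of -0.23, -0.16 and -0.44 (adjusted p = 0.0112, 0.0663 and 4.78e-05), and its call with lapatinib and THZ531 was lost without DMSO replicate 3 (adjusted p = 0.0521).

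The other eIF2B subunits did not fall. EIF2B1, the alpha subunit, was at 54.6, 49.0 and 55.5 CPM in DMSO, 58.8, 56.9 and 55.3 with 0.1 μM THZ531, 58.0, 51.0 and 51.9 with lapatinib and 56.2, 52.3 and 53.6 with nilotinib. Its levels then were 66.1, 55.1 and 57.9 CPM with lapatinib and THZ531, 68.1, 58.4 and 56.3 CPM with nilotinib and THZ531, and 57.8, 68.0 and 63.9 CPM with 1 μM THZ531. It had log2 FCs of 0.17, 0.20 and 0.25 (adjusted p = 0.0825, 0.0437 and 0.0131), and the calls were lost in 8 of the 21 fits that left out 1 library (adjusted p up to 0.258) for nilotinib and THZ531 and in 2 of the 21 fits that left out 1 library (adjusted p up to 0.0723) for 1 μM THZ531. EIF2B3, the gamma subunit, was not called, at 0.12, 0.12 and 0.18. Mitochondrial scaling put EIF2B1 at -0.51, -0.42 and -0.28 and EIF2B3 at -0.56, -0.50 and -0.36. The 5 subunits of this 1 complex thus spanned from -0.96 to 0.25 with 1 μM THZ531.

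eIF3 is the large scaffold that binds the small subunit, and most of its genes rose relative to other genes under TMM scaling. With lapatinib and THZ531 9 of its 14 tested genes rose and 0 fell, with nilotinib and THZ531 12 rose and 0 fell, and with 1 μM THZ531 9 rose and 1 fell. Over all tested genes, 34.3%, 33.7% and 33.1% rose and 37.8%, 37.3% and 36.8% fell. The 14 hold the near-identical EIF3C and EIF3CL, which are both among the 12. The medians of the 14 were 0.50, 0.51 and 0.37. EIF3H was at 486, 449.6 and 470.2 CPM in DMSO, 515, 487 and 491 with 0.1 μM THZ531, 543, 481 and 466 with lapatinib and 567, 478 and 486 with nilotinib. In the strong treatments it read 939, 833 and 853 CPM with lapatinib and THZ531, 920.2, 826 and 782 CPM with nilotinib and THZ531, and 740.4, 801 and 799.5 CPM with 1 μM THZ531. The 9 strong-treatment libraries lay above the 12 others, and the log2 FC was 0.90 ± 0.077 (SE, adjusted p = 2.1e-09), 0.85 ± 0.077 (SE, adjusted p = 5.6e-09) and 0.74 ± 0.077 (SE, adjusted p = 5.04e-08). Under mitochondrial scaling it was still above 0, at 0.22, 0.23 and 0.20, without a call.

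EIF3K and EIF3I also stayed above 0 under mitochondrial scaling with all 3 treatments. Their TMM-scaled log2 FCs were 0.78, 0.74 and 0.70 for EIF3K and 0.74, 0.74 and 0.63 for EIF3I, with libraries apart from DMSO. EIF3B and EIF3G, both subunits that touch the mRNA channel of the small ribosomal subunit, rose by 0.54, 0.59 and 0.43 and 0.47, 0.52 and 0.40, and EIF3F rose by 0.57, 0.49 and 0.40. EIF3L rose by 0.45, 0.45 and 0.28, but 51.8% of its exonic bases overlap other annotated genes, whose reads cannot be told apart by strand in these unstranded libraries. For EIF3B, EIF3G, EIF3F and EIF3L mitochondrial scaling gave values below 0 with all 3 treatments, from -0.26 to -0.031.

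EIF3E, the most abundant eIF3 gene by counts per kilobase in DMSO (573 CPM per kb), rose by 0.54 ± 0.089 and 0.53 ± 0.089 with the combinations and by 0.21 ± 0.088 with 1 μM THZ531. The last call was lost without DMSO replicate 2 (adjusted p = 0.237), without 1 μM THZ531 replicate 1 (adjusted p = 0.0588) and without 1 μM THZ531 replicate 3 (adjusted p = 0.148). EIF3A, the largest subunit and the one that anchors the core, was not called, at 0.11, 0.25 and -0.0044, and EIF3D, which can itself bind the caps of some mRNAs, had log2 FCs of 0.12, 0.26 and 0.12 (adjusted p = 0.14, 0.00323 and 0.167). EIF3M was at 139, 125 and 149 CPM in DMSO, 158, 148 and 141 with 0.1 μM THZ531, 155, 133 and 138 with lapatinib and 158, 144 and 141 with nilotinib. It was at 157, 138 and 133 CPM with lapatinib and THZ531, 165, 152 and 142 CPM with nilotinib and THZ531, and 115, 118 and 127 CPM with 1 μM THZ531. It had the lowest log2 FC of the complex with lapatinib and THZ531, 0.053 ± 0.083 (SE, adjusted p = 0.579), and was lower with 1 μM THZ531, at -0.20 ± 0.083 (SE, adjusted p = 0.0385), a call lost in 4 of the 21 fits that left out 1 library (adjusted p up to 0.182).

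EIF3J, a loosely bound subunit, was the 1 eIF3 gene called with a single treatment. It was at 114, 111 and 110.3 CPM in DMSO, 129, 126 and 125 with 0.1 μM THZ531, 112, 114 and 115 with lapatinib and 114, 115 and 117 with nilotinib. With the strong treatments it was at 123, 119 and 118 CPM with lapatinib and THZ531, 126, 119.6 and 121 CPM with nilotinib and THZ531, and 134, 131 and 128 CPM with 1 μM THZ531. The 3 libraries of 0.1 μM THZ531 lay above the DMSO libraries, with a log2 FC of 0.18 ± 0.047 (SE, adjusted p = 0.0274), and the call was lost in 7 of the 21 fits that left out 1 library (adjusted p up to 0.117). With the strong treatments the log2 FCs were 0.11, 0.13 and 0.23 (adjusted p = 0.0498, 0.017 and 0.000203), and the call with lapatinib and THZ531 was lost in 21 of the 21 fits that left out 1 library (adjusted p up to 0.144). That with nilotinib and THZ531 was lost without DMSO replicate 3 (adjusted p = 0.0561) or replicate 1 of its own group (adjusted p = 0.0692).

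EIF3C and EIF3CL are near-identical copies in opposite orientation on the same chromosome, and 97.0% and 96.9% of the 100-base stretches of their transcripts occur in the other copy, so how the counting divided or dropped their reads decides their values. EIF3CL was at 3.53, 4.04 and 4.43 CPM in DMSO, 3.45, 3.77 and 4.46 with 0.1 μM THZ531, 10.4, 3.9 and 6.62 with lapatinib and 3.45, 3.05 and 2.73 with nilotinib. Its levels then were 8.36, 5.07 and 5.02 CPM with lapatinib and THZ531, 4.45, 6.21 and 13.9 CPM with nilotinib and THZ531, and 5.31, 5.45 and 6.29 CPM with 1 μM THZ531. Its libraries spread widely within groups, and the call with nilotinib and THZ531 at 1.03 ± 0.33 (SE, adjusted p = 0.00952) was lost without replicate 3 of that group (adjusted p = 0.206). EIF3C had log2 FCs of 0.25, 0.44 and 0.35 with adjusted p = 0.261, 0.0482 and 0.112, and its call was lost in 16 of the 21 fits that left out 1 library (adjusted p up to 0.256). The noncoding EIF3J-DT, which starts beside EIF3J in the other orientation, was at 3.48, 2.93 and 3.46 CPM in DMSO, 2.26, 2.86 and 2.72 with 0.1 μM THZ531, 3.32, 3.72 and 3.53 with lapatinib and 3.45, 3.3 and 3.05 with nilotinib. It fell to 1.26, 1.3 and 1.56 CPM with lapatinib and THZ531, 1.11, 1.32 and 1.15 CPM with nilotinib and THZ531, and 1.84, 1.64 and 1.59 CPM with 1 μM THZ531. EIF3J-DT was apart from DMSO in all 3 treatments, at -1.26 ± 0.12 (SE, adjusted p = 1.61e-08), -1.46 ± 0.12 (SE, adjusted p = 2.29e-09) and -0.96 ± 0.12 (SE, adjusted p = 7.23e-07).

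Of the eIF4A helicases, EIF4A1 could not be measured. It was listed at 0 counts in every library, the read-through gene SENP3-EIF4A1 held 0 to 16 counts, and 47.4% of the exonic bases of EIF4A1 overlap exons of other annotated genes. Of the 100-base stretches of its canonical transcript, 100% also occur in transcripts of other genes, SENP3-EIF4A1 among them. EIF4A2, its paralog, was at 124, 112 and 119.7 CPM in DMSO, 119, 109 and 107 with 0.1 μM THZ531, 150.4, 135 and 134 with lapatinib and 158, 117 and 116 with nilotinib. In the strong treatments it read 90.9, 87.6 and 83.7 CPM with lapatinib and THZ531, 73.8, 67.4 and 69.4 CPM with nilotinib and THZ531, and 91.7, 92.8 and 84.0 CPM with 1 μM THZ531. The strong treatments lay below DMSO without overlap, and the log2 FC was -0.44 ± 0.095 (SE, adjusted p = 0.00033), -0.76 ± 0.095 (SE, adjusted p = 5.88e-07) and -0.41 ± 0.094 (SE, adjusted p = 0.000751). With lapatinib alone its 3 libraries lay above DMSO without a call (0.24, adjusted p = 0.545). EIF4A2 hosts small nucleolar RNAs in its introns, and 17.9% of its exonic bases overlap other annotated genes.

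EIF4A3, the helicase of the exon junction complex rather than of initiation, was at 98.9, 99.6 and 108 CPM in DMSO, 122, 113 and 114 with 0.1 μM THZ531, 101, 84.4 and 85.5 with lapatinib and 92.6, 96.7 and 96.9 with nilotinib. It was at 110.3, 101 and 100.2 CPM with lapatinib and THZ531, 120.4, 104 and 95.8 CPM with nilotinib and THZ531, and 87.5, 94.0 and 104 CPM with 1 μM THZ531. Its libraries overlapped with DMSO in all 3 strong treatments, and the log2 FCs were 0.023, 0.061 and -0.11 (95% intervals -0.14 to 0.19, -0.11 to 0.23 and -0.27 to 0.06). EIF4A3 was lower with every strong treatment under mitochondrial scaling, at -0.66, -0.55 and -0.64.

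The cofactors of the helicase moved apart. EIF4B, which stimulates eIF4A and is phosphorylated downstream of growth signalling, fell from 322 ± 5.36 CPM in DMSO to 242 ± 13.3, 263 ± 15.6 and 211 ± 19.8 CPM (mean ± SD, n = 3), with log2 FCs of -0.41, -0.29 and -0.61 (adjusted p = 1.16e-05, 0.0005 and 8.11e-08). EIF4H, which shares the eIF4A-binding activity, rose from 346 ± 7.21 CPM to 521 ± 12.8, 531 ± 12.6 and 486 ± 2.25 CPM, with log2 FCs of 0.59, 0.62 and 0.49 (adjusted p = 9.32e-10, 5.37e-10 and 2e-08). Both genes were apart from DMSO in all 3 treatments. Mitochondrial scaling took EIF4H to -0.092, -0.00056 and -0.051 and EIF4B to -1.09, -0.91 and -1.16.

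EIF4E, the cap-binding protein, was at 63.7, 64.3 and 66.9 CPM in DMSO, 73.1, 70.5 and 69.4 with 0.1 μM THZ531, 66.9, 62.9 and 66.7 with lapatinib and 61.5, 69.0 and 62.7 with nilotinib. With the strong treatments it was at 52.7, 56.2 and 52.6 CPM with lapatinib and THZ531, 54.6, 55.2 and 57.3 CPM with nilotinib and THZ531, and 41.0, 34.5 and 44.9 CPM with 1 μM THZ531. All strong-treatment libraries lay below all others, and 1 μM THZ531 had the 3 lowest, with log2 FCs of -0.27 ± 0.076 (SE, adjusted p = 0.00331), -0.22 ± 0.076 (SE, adjusted p = 0.0132) and -0.69 ± 0.076 (SE, adjusted p = 1.05e-07). Without DMSO replicate 3, the call with nilotinib and THZ531 was lost (adjusted p = 0.0503). EIF4E2, a cap-binding relative that represses translation, was at 77.4, 76.4 and 81.9 CPM in DMSO, 84.6, 83.1 and 81.8 with 0.1 μM THZ531, 81.0, 70.9 and 70.3 with lapatinib and 75.0, 79.9 and 75.7 with nilotinib. Its levels then were 93.4, 76.7 and 82.8 CPM with lapatinib and THZ531, 95.5, 85.6 and 77.7 CPM with nilotinib and THZ531, and 77.2, 83.9 and 87.4 CPM with 1 μM THZ531. Its groups overlapped, and the log2 FCs of 0.10, 0.14 and 0.076 were not called.

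EIF4E3, a scarce member of the family, was at 4.22, 3.02 and 3.76 CPM in DMSO, 3.98, 3.76 and 3.63 with 0.1 μM THZ531, 4.65, 3.26 and 3.74 with lapatinib and 4.57, 4.19 and 4.21 with nilotinib. In the strong treatments it read 5.21, 3.87 and 3.32 CPM with lapatinib and THZ531, 5.16, 4.51 and 4.17 CPM with nilotinib and THZ531, and 4.18, 4.85 and 4.48 CPM with 1 μM THZ531, again without a call. EIF4E1B, the family member known from oocytes, held 0 counts in all 12 libraries of DMSO and the single treatments. It held 24, 9 and 17 counts with lapatinib and THZ531, 15, 8 and 13 with nilotinib and THZ531, and 9, 7 and 9 with 1 μM THZ531. Against a floor of 3 counts over the DMSO group, its level was at least 21.8-fold, 15.5-fold and 10.5-fold higher. At 7 to 24 counts per library it was near the bottom of the measured range, and it passed the filter only through these 3 groups.

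The scaffold genes rose or held. EIF4G1, the main scaffold that links the cap to eIF3, was at 740.3, 883 and 759.7 CPM in DMSO, 701, 801 and 879 with 0.1 μM THZ531, 609.5, 794 and 756 with lapatinib and 622, 769 and 790.3 with nilotinib. It was at 772, 1056 and 1062 CPM with lapatinib and THZ531, 794, 1049 and 1098 CPM with nilotinib and THZ531, and 1107, 1010.2 and 1028 CPM with 1 μM THZ531. It was called with 1 μM THZ531, at 0.40 ± 0.14 (SE, adjusted p = 0.014), beside 0.28 ± 0.14 (SE, adjusted p = 0.0755) and 0.30 ± 0.14 (SE, adjusted p = 0.0549) with the combinations, and that call was lost without DMSO replicate 1 (adjusted p = 0.0562). EIF4G2, which lacks the eIF4E-binding part and serves cap-independent initiation, was the most abundant of all members by counts. It was at 3166, 2922 and 3092 CPM in DMSO, 3296, 3237 and 3064 with 0.1 μM THZ531, 3005, 2867 and 2926 with lapatinib and 2724, 3035 and 2987 with nilotinib. With the strong treatments it was at 4151, 3988 and 4097 CPM with lapatinib and THZ531, 4124, 4017 and 4024 CPM with nilotinib and THZ531, and 4267, 4291 and 4252 CPM with 1 μM THZ531. The strong treatments lay above all others, with log2 FCs of 0.41, 0.41 and 0.48 (adjusted p = 1.07e-07, 1.54e-07 and 1.65e-08), and at -0.27, -0.22 and -0.064 under mitochondrial scaling.

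EIF4G3, the third scaffold and the longest gene of the set (370606 bp), was at 91.6, 109 and 86.5 CPM in DMSO, 76.9, 88.2 and 99.0 with 0.1 μM THZ531, 78.3, 113 and 101 with lapatinib and 78.3, 92.4 and 102 with nilotinib. Its levels then were 82.1, 98.3 and 105 CPM with lapatinib and THZ531, 79.4, 93.3 and 102 CPM with nilotinib and THZ531, and 138, 128 and 115 CPM with 1 μM THZ531. The combinations overlapped with DMSO, at -0.0089 and -0.066, whereas the 3 libraries of 1 μM THZ531 lay above DMSO, at 0.41 ± 0.14 (SE, adjusted p = 0.0138). That call was lost without DMSO replicate 3 (adjusted p = 0.0653) or 1 μM THZ531 replicate 1 (adjusted p = 0.0603), and mitochondrial scaling gave -0.14 there and calls below 0 in the combinations (-0.69 and -0.69).

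EIF5 was the abundant member that fell furthest. The protein makes eIF2 hydrolyse its GTP at the start codon. EIF5 was at 582, 545 and 589.9 CPM in DMSO, 613, 600.4 and 576 with 0.1 μM THZ531, 658, 624 and 624 with lapatinib and 647, 599 and 589 with nilotinib. It fell to 256, 248 and 231 CPM with lapatinib and THZ531, 239.5, 226 and 236 CPM with nilotinib and THZ531, and 219.8, 189.9 and 228 CPM with 1 μM THZ531. The 9 treated libraries lay far below the 12 others, and the log2 FC was -1.22 ± 0.065 (SE, adjusted p = 1.68e-12), -1.29 ± 0.065 (SE, adjusted p = 8.76e-13) and -1.43 ± 0.066 (SE, adjusted p = 4.22e-13). These are falls of 2.34-fold, 2.45-fold and 2.69-fold. EIF5B, the GTPase that joins the large subunit, was at 93.4, 130.0 and 95.4 CPM in DMSO, 82.7, 91.4 and 113 with 0.1 μM THZ531, 69.2, 124 and 112 with lapatinib and 83.8, 92.6 and 117 with nilotinib. In the strong treatments it read 116, 193 and 187 CPM with lapatinib and THZ531, 114, 159 and 199 CPM with nilotinib and THZ531, and 198, 133 and 144 CPM with 1 μM THZ531. It rose by 0.64 ± 0.24, 0.57 ± 0.24 and 0.57 ± 0.24 with adjusted p = 0.0216, 0.0392 and 0.0377, but its libraries overlapped with DMSO in both combinations. The EIF5B call with 1 μM THZ531 was lost without DMSO replicate 1 (adjusted p = 0.122), DMSO replicate 3 (adjusted p = 0.113) or 1 μM THZ531 replicate 1 (adjusted p = 0.194), and those with the combinations were lost in 4 of the 21 such fits each.

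The eIF5A paralogs also moved in opposite directions. EIF5A, the abundant form that needs hypusine and helps ribosomes elongate and terminate, was at 1457, 1539 and 1487 CPM in DMSO, 1587, 1621 and 1574 with 0.1 μM THZ531, 1564, 1420.4 and 1348 with lapatinib and 1622, 1537 and 1528 with nilotinib. It was at 2581, 2357 and 2396 CPM with lapatinib and THZ531, 2417, 2218 and 2139 CPM with nilotinib and THZ531, and 2037, 2349.6 and 2244 CPM with 1 μM THZ531. The strong treatments lay above all others, with log2 FCs of 0.71 ± 0.063 (SE, adjusted p = 3.79e-09), 0.60 ± 0.063 (SE, adjusted p = 5.23e-08) and 0.56 ± 0.063 (SE, adjusted p = 1.28e-07), and mitochondrial scaling reduced these to 0.031, -0.019 and 0.032. EIF5A2, the second form, was at 62.9, 54.0 and 57.1 CPM in DMSO, 66.7, 66.3 and 54.9 with 0.1 μM THZ531, 59.6, 57.5 and 63.1 with lapatinib and 45.6, 55.5 and 51.2 with nilotinib. It fell to 29.6, 26.7 and 24.9 CPM with lapatinib and THZ531, 25.2, 25.3 and 25.4 CPM with nilotinib and THZ531, and 41.1, 43.6 and 39.4 CPM with 1 μM THZ531. Its libraries lay below all others, with log2 FCs of -1.10 ± 0.09 (SE, adjusted p = 1.25e-09) and -1.19 ± 0.091 (SE, adjusted p = 3.98e-10) with the combinations and -0.49 ± 0.089 (SE, adjusted p = 6.89e-05) with 1 μM THZ531. EIF5AL1, a retrocopy of EIF5A, was at 24.7, 26.8 and 28.5 CPM in DMSO, 33.7, 30.7 and 30.1 with 0.1 μM THZ531, 30.7, 25.4 and 22.0 with lapatinib and 30.0, 27.0 and 27.5 with nilotinib. With the strong treatments it was at 47.4, 43.0 and 43.6 CPM with lapatinib and THZ531, 53.3, 49.0 and 38.7 CPM with nilotinib and THZ531, and 36.4, 42.8 and 46.6 CPM with 1 μM THZ531. It moved like its parent gene, at 0.75, 0.82 and 0.65, and its coding part is a near copy of EIF5A, so reads may have been assigned between them.

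Among the remaining factors, EIF6, which keeps the large subunit from joining too early, rose by 0.48, 0.41 and 0.37 (adjusted p = 7.83e-05, 0.000461 and 0.00102) and was at -0.20, -0.21 and -0.15 under mitochondrial scaling. EIF2D, which can deliver tRNA without eIF2, rose by 0.59, 0.64 and 0.54 (adjusted p = 2.15e-05, 7.59e-06 and 6.3e-05), with libraries apart from DMSO. EIF2A, another eIF2-independent factor, was not called, at -0.059, -0.017 and 0.11.

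The single treatments gave 2 calls in 48 genes. With 0.1 μM THZ531, EIF3J was higher and EIF1B-AS1 lower (2.08% each, where 1.78% of all genes rose and 4.31% fell). With lapatinib and with nilotinib, edgeR called 0 members in either direction (background 0.256% higher and 0.0561% lower with lapatinib, 0.243% and 0.0998% with nilotinib), and DESeq2 also called 0. At an unadjusted p under 0.05, 5 of the 48 passed with lapatinib and 2 with nilotinib. EIF1B-AS1, a noncoding gene that starts beside EIF1B, held 19, 16 and 12 counts in DMSO, 4, 4 and 4 with 0.1 μM THZ531, 16, 13 and 20 with lapatinib and 13, 11 and 11 with nilotinib. It held 5, 4 and 5 with lapatinib and THZ531, 3, 8 and 4 with nilotinib and THZ531, and 1, 8 and 5 with 1 μM THZ531. The DMSO, lapatinib and nilotinib libraries were all above the 12 libraries that received THZ531. The log2 FC with 0.1 μM THZ531 was -1.86 ± 0.47 (SE, adjusted p = 0.0214), a call that was lost in 5 of the 21 fits that left out 1 library (adjusted p up to 0.0846), and with the strong treatments it was -1.33, -1.25 and -1.39 (adjusted p = 0.0141, 0.019 and 0.0112). The call with nilotinib and THZ531 was lost in 3 of the 21 fits that left out 1 library (adjusted p up to 0.0913), and the one with 1 μM THZ531 without replicate 1 of that group (adjusted p = 0.0687).

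The combinations were compared with 1 μM THZ531 to see where a low dose with a kinase inhibitor differs from a high dose alone. With lapatinib and THZ531, 4 members were lower and 6 higher than with 1 μM THZ531 (8.33% and 12.5%, background 16.1% and 12.8%), and with nilotinib and THZ531 5 were lower and 8 higher (10.4% and 16.7%, background 13% and 11.2%). EIF5A2 and EIF4G3 were lower with both combinations. EIF5A2 differed by -0.61 ± 0.09 (SE, adjusted p = 3.65e-05) and -0.71 ± 0.09 (SE, adjusted p = 1.02e-05), and EIF4G3 by -0.42 ± 0.14 (SE, adjusted p = 0.0297) and -0.47 ± 0.14 (SE, adjusted p = 0.0164). The EIF4G3 call was lost in 4 of the 21 fits that left out 1 library (adjusted p up to 0.125) for the lapatinib combination and without nilotinib and THZ531 replicate 1 (adjusted p = 0.0786) or 1 μM THZ531 replicate 1 (adjusted p = 0.0685) for the nilotinib combination.

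EIF4E, EIF1AD, EIF3E, EIF3M and EIF4B were higher with both combinations than with 1 μM THZ531. EIF4E differed by 0.42 ± 0.076 (SE, adjusted p = 0.000275) and 0.47 ± 0.076 (SE, adjusted p = 0.000116), and these calls held in every fit that left out 1 library. EIF1AD differed by 0.65 ± 0.14 (SE, adjusted p = 0.00172) and 0.45 ± 0.14 (SE, adjusted p = 0.0244), the second with overlapping libraries and lost without nilotinib and THZ531 replicate 2 or 3 (adjusted p = 0.117 and 0.0969) or 1 μM THZ531 replicate 2 (adjusted p = 0.149). EIF3E differed by 0.33 and 0.32, calls lost without lapatinib and THZ531 replicate 1 (adjusted p = 0.0555) for the first and without nilotinib and THZ531 replicate 1 or 1 μM THZ531 replicate 2 (adjusted p = 0.0537 and 0.0548) for the second.

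EIF3M differed by 0.25 and 0.35 and EIF4B by 0.20 and 0.31. Their calls with the nilotinib combination held in every fit that left out 1 library, and those with the lapatinib combination were lost in 3 of the 21 fits that left out 1 library (adjusted p up to 0.138) and in 3 of the 21 fits that left out 1 library (adjusted p up to 0.19), each time without lapatinib and THZ531 replicate 1 or 1 μM THZ531 replicate 2 and also without replicate 1 (EIF3M) or 3 (EIF4B) of 1 μM THZ531. EIF4A2 and EIF3J-DT were called lower with the nilotinib combination, at -0.35 (adjusted p = 0.00932) and -0.50 (adjusted p = 0.00616), and stood at -0.034 and -0.30 with the lapatinib combination. Small calls with 1 combination were made for EIF2A and EIF5 with lapatinib (-0.17 and 0.20) and for EIF2B2, EIF2B4 and EIF3B with nilotinib (0.27, 0.19 and 0.16), and each was lost in 2 to 14 of the 21 fits that left out 1 library. The lower counts against 1 μM THZ531 also hold EIF1AX-AS1, which passed the filter only through that group, and its call with the nilotinib combination was lost in 2 of the 21 fits that left out 1 library (adjusted p up to 0.0758).

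**Figure D2:**
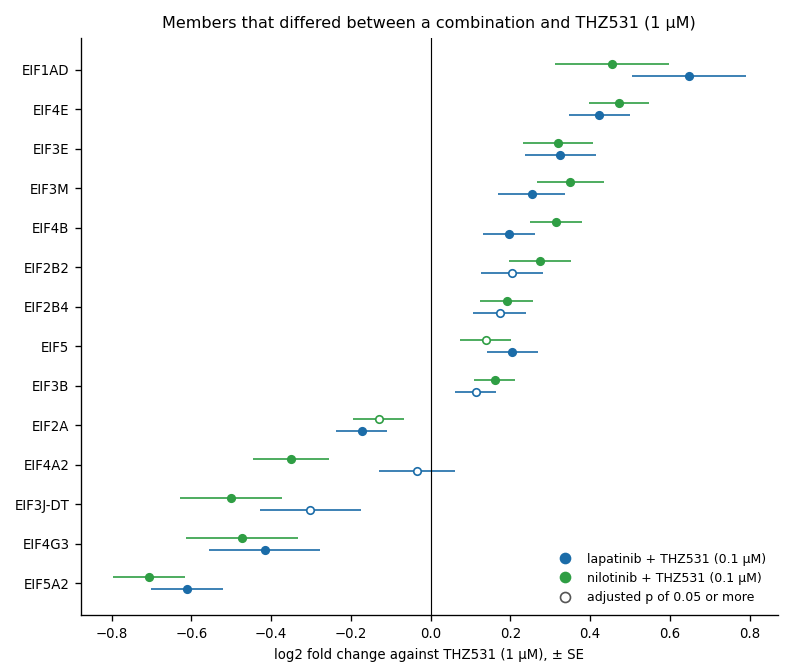
Log2 fold change of each combination against 1 μM THZ531 (x axis, error bars SE) for the initiation factor genes called in either comparison, without EIF1AX-AS1, with filled points at an adjusted p under 0.05. EIF5A2 and EIF4G3 lie on the left for both combinations and EIF1AD and EIF4E on the right, and both comparisons share the libraries of 1 μM THZ531.

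Whether each inhibitor and 0.1 μM THZ531 gave more together than the sum of their separate log2 FCs was tested as an interaction. With lapatinib, 11 members were lower and 17 higher than the sum (22.9% and 35.4%, background 32% and 28.2%), and with nilotinib 12 were lower and 17 higher (25% and 35.4%, background 31.2% and 25.6%). EIF5 had the most negative interaction, -1.43 ± 0.091 (SE, adjusted p = 8.42e-11) with lapatinib and -1.45 ± 0.091 (SE, adjusted p = 8.34e-11) with nilotinib, and its log2 FCs with the single treatments were 0.059, 0.15 and 0.10 without a call. EIF1B followed at -1.20 ± 0.10 and -1.40 ± 0.10, and EIF5A2 at -1.26 ± 0.13 and -1.11 ± 0.13. Among higher genes the interaction was 0.73 ± 0.11 and 0.64 ± 0.11 for EIF3H and 0.85 ± 0.34 and 0.84 ± 0.34 for EIF5B. EIF2S2 had interactions of -0.0018 ± 0.14 and 0.045 ± 0.14 without a call, so its value in the combinations was close to the sum of the single treatments. Under mitochondrial scaling, 18 members were lower and 0 higher with lapatinib, and 14 lower and 1 higher with nilotinib.

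Of the 38 genes listed as regulators and partners of these factors, 37 were tested, and 13 fell and 17 rose with lapatinib and THZ531 (35.1% and 45.9%, background 37.8% and 34.3%), 13 and 18 with nilotinib and THZ531 (35.1% and 48.6%, background 37.3% and 33.7%), and 12 and 17 with 1 μM THZ531 (32.4% and 45.9%, background 36.8% and 33.1%). PPP1R15A and PPP1R15B, the subunits that direct a phosphatase to eIF2 alpha, both fell, with log2 FCs of -1.18, -1.53 and -1.43 for PPP1R15A and -1.68, -1.99 and -1.84 for PPP1R15B. PPP1R15B went from 77.1 ± 2.07 CPM in DMSO to 24.0 ± 5.46, 19.4 ± 5.1 and 21.6 ± 6.95 CPM (mean ± SD, n = 3). Of the 4 eIF2 alpha kinases, EIF2AK1 rose with all 3 (0.31, 0.41 and 0.39), EIF2AK4 fell with all 3 (-0.76, -0.45 and -0.31), EIF2AK2 was not called, and EIF2AK3, the kinase of the endoplasmic reticulum, rose with the combinations but not with 1 μM THZ531 (0.73, 0.50 and -0.12). The difference of EIF2AK3 from 1 μM THZ531 was 0.86 ± 0.15 (SE, adjusted p = 0.000267) and 0.62 ± 0.15 (SE, adjusted p = 0.00488).

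Around eIF4E, the repressor gene EIF4EBP2 fell (log2 FC -1.05, -0.95 and -0.56) and EIF4EBP1 rose by 0.59, 0.53 and 0.48, while EIF4ENIF1, which carries eIF4E into the nucleus, fell (log2 FC -0.72, -0.77 and -1.28). PDCD4, an inhibitor of eIF4A, fell (log2 FC -0.79, -0.75 and -0.51), and MKNK2, which phosphorylates eIF4E, rose by 0.91, 0.56 and 0.35. Its paralog MKNK1 went the other way. It was at 11.3 ± 0.552 CPM in DMSO and at 8.47 ± 0.81, 7.78 ± 0.596 and 9.55 ± 1.87 CPM (mean ± SD). With 0.1 μM THZ531 alone it was already at 9.23 ± 0.397 CPM, without a call. The poly(A)-binding protein PABPC1, a partner of eIF4G, rose by 0.72, 0.69 and 0.75. DHPS, the first enzyme of hypusine formation on eIF5A, rose by 0.65, 0.60 and 0.66, and DOHH, the second, was not called at 0.093, 0.16 and 0.14. Of the 8 genes on the list whose symbol begins with EEF, 6 rose and 2 fell with each strong treatment under TMM scaling. The 2 were EEF1E1, a scaffold protein of the tRNA synthetase complex, and EEF2K, the kinase that inactivates eEF2. Over all tested genes, 34.3%, 33.7% and 33.1% rose and 37.8%, 37.3% and 36.8% fell. For example, EEF1B2 rose by 0.86, 0.74 and 0.68 and EEF2 by 0.44, 0.45 and 0.38. The mitochondrial initiation factor MTIF2 fell (log2 FC -1.19, -0.98 and -0.78).

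The changes were also set against gene length. The copy pairs EIF3C and EIF3CL and EIF5A and EIF5AL1 were left out by name. By shared 100-base stretches, EIF5A (12.5%) and EIF5AL1 (7.69%) lay below some members that were kept, such as EIF3L (50.0%). Over the 41 other coding members, Spearman's rho between log2 FC and gene span was 0.19, 0.21 and 0.21 for the 3 strong treatments, where it was -0.15, -0.10 and -0.11 over 13747 tested coding genes. With transcript length the members had the same sign as all coding genes, at -0.13, -0.12 and -0.040 beside -0.27, -0.24 and -0.26. With exon number the members were at 0.017, 0.059 and 0.077 and all coding genes at -0.032, 0.0056 and 0.044. EIF4G3, the longest, was not called lower with any strong treatment under TMM scaling, and EIF3H, 124245 bp long, had the highest log2 FC of the eIF3 genes with lapatinib and THZ531. EIF1B, 2718 bp long, and EIF5, 10789 bp long, were among the members that fell furthest. The points share libraries and depth, and the coefficients are descriptions.

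By level per kilobase of transcript in DMSO, EIF5A was highest (1182 CPM per kb), followed by EIF4G2 (807) and EIF3E (573), and EIF4E (26.8), EIF5B (18.5) and EIF5A2 (10.5) were low. In the pairs EIF1 and EIF1B and EIF5A and EIF5A2 the copy with the lower level fell. EIF1 stood at 166 and EIF1B at 32.8, and EIF5A at 1182 and EIF5A2 at 10.5 CPM per kb. Other paralogs did not follow this. EIF5AL1, at 24.7, 26.8 and 28.5 CPM in DMSO and so below EIF5A2, rose with all 3 strong treatments. EIF4E fell, while the scarcer EIF4E3 was not called.

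How far the directions rest on the scaling was compared gene by gene. Of the 20 members higher with lapatinib and THZ531, 13 were below 0 under mitochondrial scaling, and 2 of those were called lower. Of the 25 higher with nilotinib and THZ531, 18 were below 0 and 4 called lower, and of the 25 higher with 1 μM THZ531, 15 were below 0 and 2 called lower. All members called lower under TMM scaling were also called lower under mitochondrial scaling, 13, 11 and 13 of them. The change of scaling moves all genes of a comparison down by nearly the same amount, so these kept calls are no separate check. The falls of EIF5, EIF1B and EIF5A2 with lapatinib and THZ531 were then -1.91, -1.99 and -1.78. Which scaling is closer to RNA per cell was not tested.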

How the data were processed

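RNA of 21 libraries of Hs578T cells (7 groups of 3 replicates) was sequenced. The deposited values are whole-number counts per gene, which the authors made from paired-end reads of unstranded, polyA-selected libraries with HISAT2 2.1.0 on GRCh38 and featureCounts, per the labels. The featureCounts version and annotation are not given in the sources used here. Rows carry NCBI gene IDs, and symbols, exon lengths and overlaps came from the reference tables and GENCODE release 44. Columns were matched to samples by name, and 0 library columns were left unused.

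Counts were tested with edgeR 4.0.16 (R 4.3.3, limma 3.58.1): filterByExpr, TMM scaling, 1 quasi-likelihood fit of all 21 libraries with a mean per group, and Benjamini-Hochberg adjustment over 16036 genes. A gene was called at an adjusted p under 0.05, and beyond 2-fold at a log2 FC beyond 1. CPM values were computed here from the counts and the TMM-scaled library sizes, except those of the cell markers, which used the unscaled totals. SEs were derived from the quasi-likelihood F statistic. The 10 contrasts were the 6 treatments against DMSO, both combinations against the high THZ531 dose, and the 2 interactions. The fit was checked on simulated counts.

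The members, gene lists and tests were chosen with earlier results of these data known. All tested members are named. Values in every library are given for the lowest and highest log2 FC with lapatinib and THZ531 in complexes of at least 3 tested genes, members beyond 2-fold, members called with a single treatment, and 5 paralog sets (EIF4A, EIF4G, EIF4E, EIF5A, EIF1). Totals of 97612207 to 112229052 counts keep counting error small for all but the scarcest members. Alternatives were DESeq2 1.42.0, its size factors in edgeR, library size alone, upper-quartile and mitochondrial scaling, other filters, halved counts, a replicate block, only the groups compared, the coding list without EIF3C, EIF3CL, EIF5A and EIF5AL1, and leaving out each library. Promoter sequences are from RefSeq (GRCh38.p14), for 43 of the 50 genes.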

Additional observations from a re-analysis of the deposited data

Results flagged for a closer look

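The results taken up here are those in which the response to an inhibitor differed with and without 0.1 μM THZ531 by the interaction test (edgeR quasi-likelihood, adjusted over all genes). For lapatinib, 11 members were lower and 17 higher than the sum of the single log2 FCs, and for nilotinib 12 and 17. The members beyond 1 on the log2 scale were EIF5, at -1.43 ± 0.091 (SE, adjusted p = 8.42e-11) with lapatinib and -1.45 ± 0.091 (SE, adjusted p = 8.34e-11) with nilotinib, EIF1B, at -1.20 and -1.40, EIF5A2, at -1.26 and -1.11, and the noncoding EIF3J-DT, at -1.03 and -1.12.

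With nilotinib, EIF3C had an interaction of 1.00 ± 0.27 (SE, adjusted p = 0.00415) and EIF3CL one of 1.45 ± 0.48 (SE, adjusted p = 0.0138), and these copies share nearly all of their sequence. The EIF3CL interaction was 0.83 and lost its call without nilotinib and THZ531 replicate 3 (adjusted p = 0.0764). The EIF3CL libraries of nilotinib and THZ531 read 4.45, 6.21 and 13.9 CPM, so 1 library holds most of that group's rise. No outlier test was run on groups of 3 libraries, and leaving out each library is described with the processing.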

How the results depend on the processing

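Most alternatives kept the directions. With DESeq2 size factors in edgeR, or with DESeq2 itself, no member called in either fit changed sign, and 3 uncalled values near 0 did. The scaling did change directions. Mitochondrial scaling gave 27 lower and 1 higher with lapatinib and THZ531, 24 and 1 with the nilotinib combination, 21 and 2 with 1 μM THZ531, 1 higher for the lapatinib combination against 1 μM THZ531, 0 higher for the nilotinib combination, 18 lower and 0 higher for the lapatinib interaction and 1 higher for the nilotinib interaction. Beyond 2-fold it gave 10, 9 and 10 lower with the 3 strong treatments and 1 higher with nilotinib and THZ531. Library size alone gave 21 lower and 12 higher, 17 and 13, and (1 μM THZ531) 13 higher, 8 lower and 3 higher for the lapatinib combination against 1 μM THZ531, 18 lower and 6 higher for the lapatinib interaction, 7 higher for the nilotinib interaction, and beyond 2-fold 8 lower and 1 higher with nilotinib and THZ531. Upper-quartile scaling gave 7 lower and 3 higher, and 8 and 5, for the combinations against 1 μM THZ531 and 2 higher beyond 2-fold with lapatinib and THZ531. With only the groups compared in the fit, the lapatinib combination held 2 lower and 3 higher calls against 1 μM THZ531, the nilotinib combination 4 higher calls, 0, 1 and 1 were higher beyond 2-fold with the 3 strong treatments, and DESeq2 gave 11 higher for the lapatinib combination against 1 μM THZ531. With 10 counts in every library or counts halved, 0, 1 and 0 were higher beyond 2-fold with the 3 strong treatments, since the filters then dropped EIF4E1B and EIF1AX-AS1. Without EIF3C, EIF3CL, EIF5A, EIF5AL1 and the noncoding members, 3 were lower beyond 2-fold with each combination, 1 was higher beyond 2-fold with nilotinib and THZ531 and 1 with the high THZ531 dose, and 3 were lower for the nilotinib combination against 1 μM THZ531. The call of EIF1B-AS1 with 0.1 μM THZ531 left 0 lower under mitochondrial scaling, no filter, the stricter filter, halved counts and the coding list, and the call of EIF3J left 0 higher under library size, upper-quartile and mitochondrial scaling, no filter and the smaller fit. Where no value shows the cause of a change, the cause was not tested.

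Log2 FCs under mitochondrial scaling that changed sign and were called under it or under TMM with lapatinib and THZ531 were EIF1AX -0.23, EIF2B1 -0.51, EIF2B3 -0.56, EIF2D -0.10, EIF2S2 -0.35, EIF2S3 -0.66, EIF3A -0.58, EIF3B -0.14, EIF3D -0.56, EIF3E -0.15, EIF3F -0.11, EIF3G -0.21, EIF3J -0.58, EIF3L -0.23, EIF3M -0.63, EIF4A3 -0.66, EIF4E2 -0.58, EIF4E3 -0.51, EIF4G1 -0.41, EIF4G2 -0.27, EIF4H -0.092, EIF5B -0.045 and EIF6 -0.20. Those with nilotinib and THZ531 were EIF1 -0.10, EIF1AX -0.15, EIF2B1 -0.42, EIF2B3 -0.50, EIF2S2 -0.28, EIF2S3 -0.43, EIF3A -0.38, EIF3B -0.031, EIF3C -0.19, EIF3D -0.35, EIF3E -0.093, EIF3F -0.12, EIF3G -0.10, EIF3J -0.49, EIF3L -0.17, EIF3M -0.47, EIF4A3 -0.55, EIF4E2 -0.48, EIF4G2 -0.22, EIF4H -0.00056, EIF5A -0.019, EIF5B -0.058 and EIF6 -0.21. Those with 1 μM THZ531 were EIF1AX -0.046, EIF2A -0.43, EIF2B1 -0.28, EIF2S2 -0.28, EIF2S3 -0.38, EIF3B -0.11, EIF3D -0.42, EIF3E -0.33, EIF3F -0.14, EIF3G -0.14, EIF3J -0.32, EIF3L -0.26, EIF4E2 -0.46, EIF4G1 -0.14, EIF4G2 -0.064, EIF4G3 -0.14, EIF4H -0.051 and EIF6 -0.15. Under library size alone, those with lapatinib and THZ531 were EIF2S3 -0.30, EIF3D -0.21, EIF3J -0.22, EIF3M -0.28, EIF4A3 -0.30 and EIF4E2 -0.23. Those with nilotinib and THZ531 were EIF2B1 -0.10, EIF2S3 -0.11, EIF3D -0.038, EIF3J -0.17 and EIF4A3 -0.24. Those with 1 μM THZ531 were EIF2B1 -0.0048, EIF2S2 -0.0021, EIF2S3 -0.086, EIF3E -0.047, EIF3J -0.029 and EIF4E2 -0.18. Under upper-quartile scaling EIF2S1 with lapatinib and THZ531 was at 0.00096 and EIF3M with 1 μM THZ531 at 0.0011.

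Leaving out each library in turn gave 11 to 13 lower and 18 to 20 higher with lapatinib and THZ531, 10 to 12 and 22 to 27 with the nilotinib combination, 11 to 14 and 21 to 25 with 1 μM THZ531, 0 to 1 each with 0.1 μM THZ531, 2 to 5 and 2 to 7, and 3 to 5 and 5 to 8, for the combinations against 1 μM THZ531, and 1 to 3 higher beyond 2-fold with nilotinib and THZ531. The counts that moved most were 2 lower for the lapatinib combination against 1 μM THZ531 without its own replicate 2 or 1 μM THZ531 replicate 1 or 2, 2 higher without its replicate 1, 3 lower for the nilotinib combination without 1 μM THZ531 replicate 1, 5 higher without its own replicate 2 or 1 μM THZ531 replicate 2, and 1 higher beyond 2-fold without DMSO replicate 1 or nilotinib and THZ531 replicate 3. With 0.1 μM THZ531, 0 were lower without DMSO replicate 1 or 2 or any replicate of that group, and 0 higher without any DMSO or 0.1 μM THZ531 replicate or nilotinib replicate 1.

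Libraries that share a replicate number did not all deviate together (correlations of their deviations from the group means -0.2754 to 0.3201 over 63 pairs), so the numbers, which the labels do not tie to an experiment, were not taken as pairs. The fit with the replicate number as a block gave 13 lower and 21 higher, 12 and 27, and 14 and 26 with the strong treatments, 6 and 7, and 5 and 8, against 1 μM THZ531, 12 and 19, and 12 and 21, for the interactions, and 1 higher beyond 2-fold with nilotinib and THZ531, and 11 of the 21 libraries correlated best with their own number. With the block, calls against DMSO were added for EIF4G1 with both combinations (0.27 and 0.29, adjusted p = 0.0163 and 0.00963), EIF4E3 with nilotinib and THZ531 and with the high THZ531 dose (adjusted p = 0.0286 and 0.0399), EIF2B2 and EIF3A with nilotinib and THZ531 (adjusted p = 0.0438 and 0.0498) and EIF2S1 with 1 μM THZ531 (adjusted p = 0.0428), and the call of EIF3C with nilotinib and THZ531 was lost (adjusted p = 0.0559). Depth limits EIF4E1B and EIF1B-AS1, which held at most 24 and 20 counts per library.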

Other observations

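Other genes of the regulator list, all under TMM scaling, included factors that recycle ribosomes or act at the start codon. MCTS1 and DENR, partners in reinitiation, rose by 0.51, 0.43 and 0.26 and by 0.16, 0.26 and 0.25 on the log2 scale with lapatinib and THZ531, nilotinib and THZ531, and 1 μM THZ531 (adjusted p = 0.000237, 0.0013 and 0.0324 and 0.043, 0.00227 and 0.00247, edgeR), whereas ABCE1, which splits ribosomes, had log2 FCs of -0.14, -0.0083 and -0.048 without a call. BZW2, a mimic of eIF5 that competes with it, rose by 0.71, 0.77 and 0.60, and its paralog BZW1 had log2 FCs of 0.17, 0.31 and 0.24 (adjusted p = 0.068, 0.00247 and 0.0148). Of the helicases, DDX3X had log2 FCs of -0.16, -0.20 and -0.16 (adjusted p = 0.0646, 0.0259 and 0.0729) and DHX29 of -0.19, 0.038 and 0.0034 (adjusted p = 0.00616, 0.561 and 0.959).

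The listed subunits of the elongation factor eEF1 rose, for example EEF1A1 by 0.66, 0.57 and 0.44, EEF1D by 1.20, 1.52 and 1.15 and EEF1G by 0.77, 0.70 and 0.59. EEF1E1, which carries the name but encodes a scaffold protein of the tRNA synthetase complex, fell, with log2 FCs of -1.24, -1.17 and -0.94. EEF2K, the kinase that inactivates eEF2, fell, with log2 FCs of -0.55, -0.24 and -0.56. ETF1, the stop-codon release factor, fell, with log2 FCs of -0.36, -0.26 and -0.25, and its partner GSPT1 had 0.14, 0.26 and 0.11 (adjusted p = 0.0136, 0.000126 and 0.0668). With a single treatment, MTIF2 was the 1 gene of the list that was called, at -0.31 ± 0.07 (SE, adjusted p = 0.0111) with 0.1 μM THZ531.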
